A study of Mus musculus with 3 samples.

Results

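The pooled FOG2 peak list held 477 peaks whose summits lay deep inside giant genes, out of 6166 peaks in all and 6067 on the autosomes (7.86% of the autosomal peaks). A giant gene is here a protein-coding gene whose body spans at least 500 kb. A peak was taken when its summit, the base of highest pulldown signal, lay inside such a gene and more than 5 kb from both ends of every protein-coding gene. A summit held by several genes was counted for the longest of them, which concerned 4 of the 477. The choice used position only, not peak strength. It used the outer edges of each gene and not its exons, so exonic and intronic summits could not be told apart.

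The peaks came from embryonic mouse hearts, whose ventricles were taken at E12.5 (embryonic day), with 2 FOG2 pulldown libraries and 1 input library (sonicated chromatin that was not enriched). Each replicate pooled about 20 ventricles of genotype Fog2flbio/flbio;Rosa26BirA/BirA, fixed in 1% formaldehyde for 10 minutes. In these mice a biotin tag on FOG2 is modified by the bacterial ligase BirA, which is expressed from the broadly active Rosa26 locus and so marks no single cell type, and FOG2 was recovered on streptavidin beads. The labels also give the genotype as WT and, for the pulldowns, a FOG2 antibody, which differs from that protocol. The peak names carry the word FLAG, and the pulldown route given here follows the protocol. The tagged allele and BirA were shared by all libraries, and the only control was input, with no pulldown from tissue lacking tagged FOG2. Gene expression was not measured, so the labelled tissue could not be checked by its markers. The authors called the peaks on pooled libraries, so no value below has a replicate spread and no difference was tested. Intervals are 95% intervals (exact Poisson for counts and densities, Wilson for shares) and cover counting error only.

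FOG2, encoded by Zfpm2, is a zinc finger protein that does not need to touch DNA itself. It is brought to chromatin by GATA factors, chiefly GATA4 in the heart, and strengthens or weakens their action on target genes. Giant genes owe their length to very long introns, which can hold enhancers of the gene itself or of its neighbours. Many of them encode adhesion molecules, synaptic proteins, channels, signalling proteins and transcription factors, and in the heart the class includes the ryanodine receptor and the main L-type calcium channel.

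Of the 477 members, 3 overlapped a promoter window, the stretch from 250 bases before to 50 bases after a transcription start listed by RefSeq (GRCm38.p6, the assembly of mm10), against 118 of the 6067 autosomal peaks. The rule drops summits within 5 kb of protein-coding gene ends, so windows at the outer starts of such genes could not count for members. The low number therefore follows from the choice and does not compare members with other peaks. These 3 windows are shown because they are the only members' positions for which sequence was at hand. All are written 5′ to 3′ on the minus strand. Capitals mark every match to the letters searched on both strands. For the site bound by GATA factors these were AGATAA, then AGATAG, then TGATAA and last TGATAG. For the T-box core they were AGGTGT. For the TEAD core they were GGAATG, which in the other direction reads CATTCC.
Mecom internal start, chr3:30013155-30013454: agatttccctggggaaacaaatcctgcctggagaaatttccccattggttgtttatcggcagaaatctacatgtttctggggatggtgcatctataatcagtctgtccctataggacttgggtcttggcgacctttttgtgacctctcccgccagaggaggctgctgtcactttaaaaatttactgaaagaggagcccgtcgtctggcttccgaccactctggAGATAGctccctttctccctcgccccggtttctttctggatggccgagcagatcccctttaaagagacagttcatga
Syne1 internal start, chr10:5069014-5069313: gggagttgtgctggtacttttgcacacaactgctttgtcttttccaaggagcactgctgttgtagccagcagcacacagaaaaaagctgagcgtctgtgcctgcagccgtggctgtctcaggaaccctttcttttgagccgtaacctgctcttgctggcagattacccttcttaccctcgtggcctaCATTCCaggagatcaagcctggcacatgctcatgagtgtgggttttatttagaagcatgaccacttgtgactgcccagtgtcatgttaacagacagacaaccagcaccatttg
Gm9968, inside Zbtb20, chr16:43363617-43363916: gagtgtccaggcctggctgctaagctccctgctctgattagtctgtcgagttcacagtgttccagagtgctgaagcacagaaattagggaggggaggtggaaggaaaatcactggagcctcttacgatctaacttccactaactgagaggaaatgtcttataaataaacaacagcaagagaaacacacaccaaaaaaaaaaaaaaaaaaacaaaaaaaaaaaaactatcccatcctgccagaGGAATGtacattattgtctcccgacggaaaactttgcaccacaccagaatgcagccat

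The Mecom window belonged to a start well inside the gene body, 497 kb from its outer start. Mecom encodes a zinc finger transcription factor known from blood stem cells. The peak there (chr3:30013137-30013345) had its summit 26 bases after the start and was 5.70-fold over control, with 10 pulldown fragments at the summit (4.80 to 18.4). Its window held AGATAG 27 bases before the start. A GATA match of this kind was present in 29.8% of all 32851 promoter windows of the table, so a single match in 3 windows describes these letters only.

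The Syne1 window lay at 1 of 3 listed starts of the gene for nesprin-1, a giant protein that ties the nuclear envelope to the cytoskeleton. Its peak (chr10:5069005-5069262) had a summit 49 bases before the start and was 3.89-fold over control, with 10 fragments. The Gm9968 window is the promoter of a second gene that starts inside Zbtb20. There the summit lay 205 bases before the start, in a peak (chr16:43363722-43363893) of 4.60-fold and 12 fragments (6.20 to 21.0). Neither of these windows held the GATA letters. Each held 1 TEAD core, 63 bases before the start in Syne1 and 8 bases before it in Gm9968, which 14.7% of all windows did, and none of the 3 held the T-box core, present in 13.7%. The Syne1 match lay within its peak, but that of Gm9968 lay between the start and the peak, outside the peak itself. All 3 peaks were below the members' median fold.

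Summits were found in 171 of the 216 giant genes of the autosomes (79.2%). By the same rule 11.2% of all autosomal protein-coding genes with interior sequence held a summit, as did 38.0% of those of 100 to 500 kb. Longer genes offer more sequence in which a summit can fall, so these shares do not compare genes at equal length. In all, 45 giant genes held 0 summits, 62 held 1, 35 held 2 and 29 held 3. Some of the 45 overlap other giant genes and so are not separate stretches of sequence. Counting a summit for every giant gene that holds it gave 172 genes with a summit in place of 171. The 29 genes with at least 5 held 194 of the 477 members (40.7%). The giant genes had a median length of 735 kb, and the longest was Ptprd, at 2271 kb.

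Macrod2 held 12 summits, more than any other giant gene, and Robo1 held 10. Rbfox1, Tenm3, Auts2 and Celf2 held 9 each, Ppargc1a, Nav3 and Lrmda 8 each, and Erbb4 and Ptprd 7 each. These genes differ widely in what they encode, from an enzyme that removes ADP-ribose (Macrod2) and a receptor for Slit guidance cues (Robo1) to splicing regulators (Rbfox1, Celf2) and a coactivator of mitochondrial biogenesis (Ppargc1a). Interior length and summit count were loosely related over the 216 genes (Spearman correlation 0.20, Pearson correlation 0.25), where the genes shared the same libraries and most counts were small. Gene by gene, density and interior length had a Spearman correlation of -0.09, which ranks each gene equally and leaves the many genes with 0 or 1 summit poorly resolved.

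**Figure D1:**
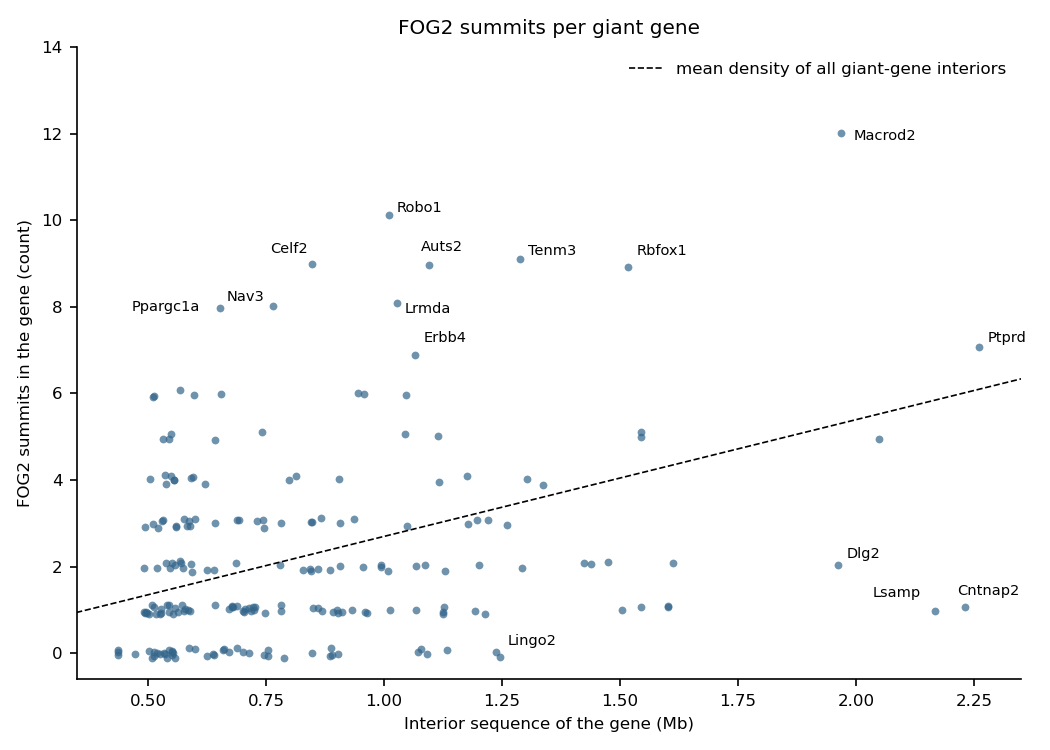
Number of FOG2 summits in each of the 216 giant genes (vertical axis, count, with points moved slightly up or down so that they do not hide each other) against the gene's interior sequence in Mb (horizontal axis). The dashed line is the mean density of 2.70 summits per Mb. Macrod2 with 12 and Robo1 with 10 stand highest, and Lsamp and Cntnap2, both over 2 Mb long, hold 1 each.

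At the mean density of all giant-gene interiors, 2.70 summits per Mb, 17 genes had an interval wholly above that value. They were Auts2, Cdkal1, Celf2, Esrrg, Lrmda, Macrod2, Mecom, Nav3, Nfia, Pde4b, Ppargc1a, Ptprk, Rbfox1, Robo1, Ryr2, Sema6d and Tenm3, and together they held 127 summits. The densest of the genes with at least 7 summits was Ppargc1a, at 12.3 per Mb (5.30 to 24.2). Celf2 followed at 10.6 and Nav3 at 10.5. Intervals wholly below the mean were found in Cntnap2, with 1 summit in 2231 kb, and Lsamp, with 1 in 2167 kb. Both encode neuronal adhesion molecules. The intervals of the 216 genes were not adjusted for their number, and these genes are named from their values. They also treat each summit as separate, although some of these genes, such as Robo1 and Rbfox1, held summits within 10 kb of another. The lower bound of Rbfox1, 2.71, was barely above the mean.

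Giant-gene interiors were sparser in FOG2 summits than the interiors of genes of 100 to 500 kb. The 477 members lay in 177 Mb, which gives 2.70 per Mb (2.46 to 2.95), against 3.55 per Mb (3.36 to 3.75) for 1346 peaks in genes of 100 to 500 kb. The values were 2.28 (2.1 to 2.48) in genes under 100 kb, 2.15 (1.99 to 2.32) within 5 kb of gene ends and 2.29 (2.21 to 2.37) outside gene bodies. Giant genes thus stood between the genes of 100 to 500 kb and the other classes, with no overlap of intervals on either side except with that of genes under 100 kb, which reached 2.48. The same order against genes of 100 to 500 kb was seen on 18 of 19 autosomes, the exception being chromosome 16 (3.83 in giant genes and 3.11 in the others). Against the sequence outside genes, giant genes were denser on 14 of 19. By chromosome the giant-gene density ran from 0.894 on chromosome 18, which holds few giant genes, to 3.83, with a median of 2.46. Assembly gaps and stretches where reads cannot be placed were left in the lengths, and their part in these densities was not tested.

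Pooled over the genes of a length class, density was lower in the longer giant genes. It was 3.21 per Mb (2.79 to 3.68) in genes of 500 to 750 kb, 2.46 (2.0 to 2.99) at 750 to 1000 kb and 2.37 (2.03 to 2.76) above 1000 kb. Of the shorter classes, that of 200 to 300 kb was the densest, at 4.19 (3.79 to 4.63). The class of 400 to 500 kb, at 3.42 (2.94 to 3.96), overlapped that of 500 to 750 kb, so no step was seen at the 500 kb border itself.

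**Figure D2:**
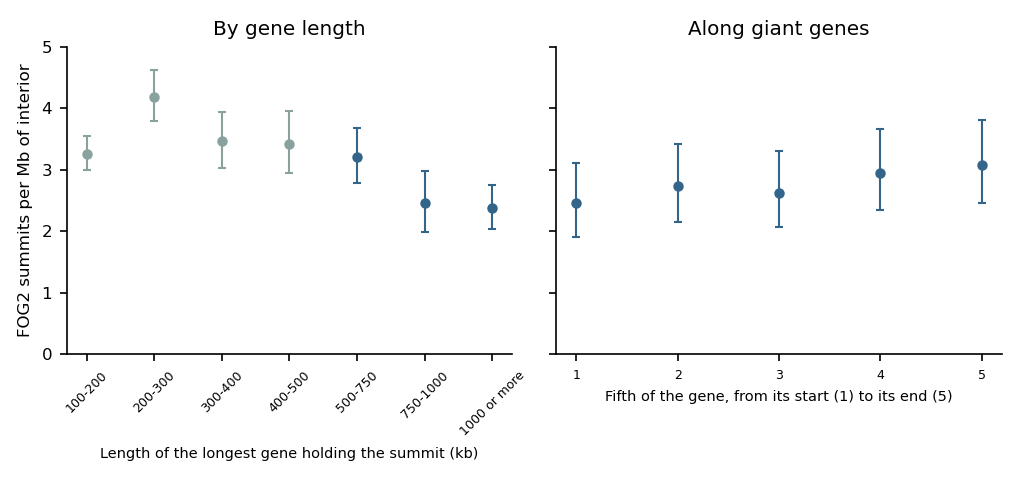
FOG2 summits per Mb of interior sequence (vertical axis) by the length of the longest gene holding the summit in kb (left panel, giant genes in blue) and by position in the giant gene, in 5 equal parts from start (1) to end (5) (right panel). Points are densities and bars exact 95% Poisson intervals. Density falls from 4.19 at 200 to 300 kb to 2.37 above 1000 kb, while the 5 parts of the giant genes lie between 2.46 and 3.08 with overlapping intervals.

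Summits were spread along the whole length of the giant genes. Strand could be matched for 169 of the 216, which held 385 members in 138 genes. Cut into 5 equal parts from start to end, these genes held 67, 77, 74, 83 and 84 summits. The densities were 2.46 per Mb (1.90 to 3.12) in the part nearest the start and 3.08 (2.46 to 3.81) in that nearest the end, with all 5 intervals overlapping. The median member lay 414 kb from the outer start of its gene and the farthest 2168 kb. The nearest start that the promoter table lists for the gene was a median of 244 kb away, and 6 of the 385 lay within 5 kb of one. No member overlapped a miRNA hairpin of the RefSeq table. No number for all autosomal peaks stands beside this count, so it does not compare members with other peaks.

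The outer edge of a gene body is the edge of its RefSeq gene record, and some genes have their listed promoter far inside it. The promoter table is not complete, so a listed start need not be the only one in use. Of the 385 members, 40 (10.4%) in 16 genes lay between the outer edge and the first listed start, that is upstream of the listed promoter. The share of interior sequence lying upstream was not computed, so this count does not compare members with position alone. In Robo1 8 of 10 summits lay upstream, with 636 of the gene's 1020 kb there, and in Sox5 6 of 6, with 835 of 954 kb. Tenm3 had 6 of 9 upstream (848 of 1297 kb), Pde4b 4 of 6 (334 of 520 kb) and Ppargc1a 3 of 8 (548 of 662 kb). These genes had the most upstream summits and also most of their length upstream. Other genes had long upstream parts with no summit, such as Ntm (0 of 6 summits, 550 kb) and Sgcd (0 of 2, 610 kb). Measured from the first listed start, 17 giant genes holding 69 members would span under 500 kb. The 313 members in 120 genes that lay downstream of a listed start in spans of at least 500 kb had the same median fold, 6.30.

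The members were of ordinary strength for this list, with fewer very strong peaks. Fold is the authors' ratio of pulldown to control at the summit. Its median was 6.30 (quartiles 5.41 and 7.66, range 3.54 to 34.1), against 6.39 in all autosomal peaks, 6.48 in genes of 100 to 500 kb and 6.56 outside genes. A fold of at least 10 was reached by 61 members, or 12.8% (10.1 to 16.1), against 16.8% of all autosomal peaks. The share was 15.6% (13.8 to 17.6) in genes of 100 to 500 kb, which overlaps that of the giant genes, and 18.2% (16.8 to 19.6) outside gene bodies, which does not. Within the class of 100 to 500 kb it was 15.1% at 100 to 200 kb, 18.9% at 200 to 300 kb, 13.3% at 300 to 400 kb and 12.8% at 400 to 500 kb. A share this low was thus not particular to giant genes. At 20-fold there were 7 members (1.47%), against 2.92% of all autosomal peaks.

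The precision behind a single peak was low. A median member rested on 11 pulldown fragments at its summit (quartiles 9 and 15, range 5 to 56), against 12 in all autosomal peaks, and 209 (43.8%) rested on 10 or fewer, against 39.2%. The median peak was 251 bp wide, as in the whole list. The control level used by the caller was at its lowest value, the genome background, at 73 members (15.3%), against 16.3% of all autosomal peaks, 11.1% in genes of 100 to 500 kb and 19.0% outside genes. Of the members, 307 (64.4%) had a −log10 q of at least 5, against 66.4% of all autosomal peaks.

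**Figure D3:**
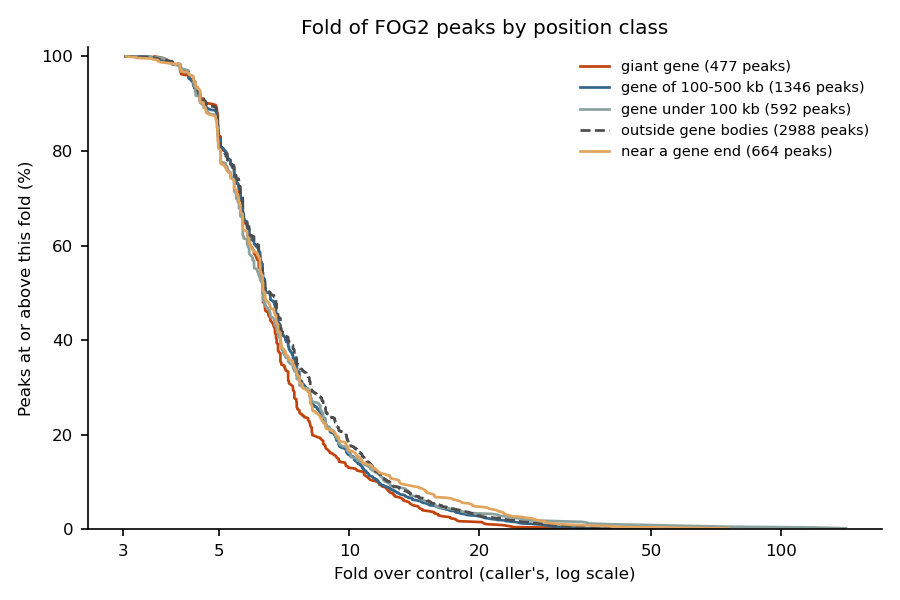
Share of peaks in percent (vertical axis) at or above each fold over control (horizontal axis, log scale), for the 5 position classes, 1 line each. The curves run together around the median of 6.30 to 6.56, and above about 8-fold the line of the 477 giant-gene peaks lies lowest, reaching 12.8% at 10-fold against 18.2% outside genes.

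Close neighbours were less frequent among members than in the list as a whole. Another summit lay within 10 kb of 62 members, or 13% (10.3 to 16.3), against 18.6% of all autosomal peaks, 17.8% (15.8 to 19.9) in genes of 100 to 500 kb, which overlaps the members' interval, and 19.8% (18.4 to 21.2) outside genes, which does not. The median distance to the nearest summit was 88.4 kb, against 72.0 kb in all, 61.2 kb in genes of 100 to 500 kb, 94.7 kb in genes under 100 kb and 113 kb near gene ends. Those 62 members formed 28 groups in 27 genes, 24 of them pairs. The fullest group was in Robo1, with 5 summits over 12.4 kb (chr16:72371317-72383904), the strongest of which was 15.3-fold. Rbfox1 had 3 summits within 1.42 kb, up to 17.1-fold, Csmd2 3 within 0.61 kb and Lrmda 3 within 2.38 kb. In Erbb4 a pair 0.994 kb apart reached 16.4-fold and 12.7-fold.

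The strongest member lay in Sox5, which encodes an SRY-related factor that acts with Sox6 in cartilage, neurons and other tissues. That peak (chr6:144323553-144324500) was 34.1-fold over control with 56 fragments (42.3 to 72.7) and lay 458 kb from the outer start. The other 5 Sox5 summits were at 4.06-fold to 8.12-fold. Unc5d, a netrin receptor, held a single summit, at 24.1-fold (38 fragments), and Epha6, an ephrin receptor, also held 1, at 22.7-fold (35 fragments), with no other summit of the list within 988 kb. Lrmda reached 23.5-fold, Cdh18 20.7-fold and Macrod2 20.4-fold. In Lrmda and Macrod2, as in Sox5, the remaining summits were lower, at most 6.79-fold and 9.02-fold. Ppargc1a, at 20.3-fold, was the last of the 7 members above 20-fold.

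**Figure D4:**
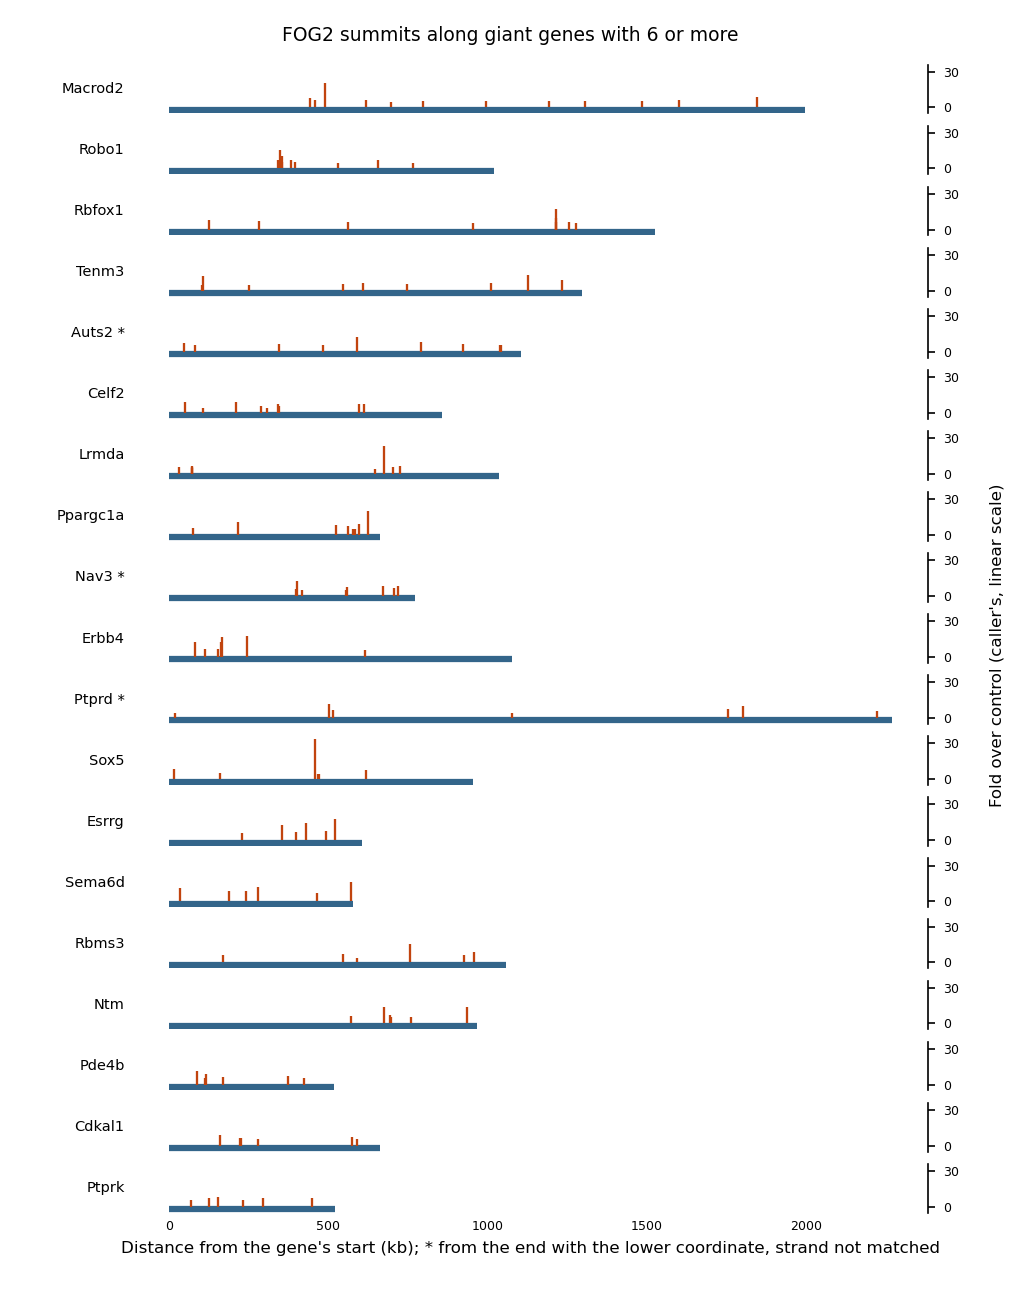
Positions of FOG2 summits along the 19 giant genes with at least 6 (horizontal axis, distance from the gene's outer start in kb, or from its lower coordinate where strand was not matched, marked with an asterisk). Blue bars are gene bodies, and the height of each red line is the peak's fold on a linear scale. Sox5 shows 1 tall line of 34.1 among low ones, Robo1 a group that begins 344 kb from the start, and Macrod2 12 lines spread over most of its length.

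Transcription factor and chromatin regulator genes were 1 of the 2 lists whose density interval lay wholly above the giant-gene mean, the other being RNA-binding protein genes. Of 17 giant genes in this list 16 held a summit, with 64 summits in all, or 5.45 per Mb (4.20 to 6.96) against 2.70 in all giant genes. The list's value was 5.17 without Auts2, its fullest gene. The 9 role lists were made with earlier results of these data known, so their densities are descriptions.

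Ppargc1a and Esrrg belong to this group and are partners in the oxidative metabolism of heart muscle, as coactivator (PGC-1α) and nuclear receptor (ERRγ). The 8 Ppargc1a summits had folds of 20.3, 8.92, 5.12, 4.82, 7.14, 8.03, 10.4 and 5.86 in order along the chromosome. The strongest (chr5:51488758-51489450, 34 fragments, 23.5 to 47.5) lay 34.8 kb from the far end of the gene and downstream of the listed start. The 6 Esrrg summits had folds of 6.07, 12.7, 6.49, 14.4, 7.77 and 17.9. A fold of 10 was passed by 2 of the 8 in Ppargc1a and 3 of the 6 in Esrrg, and the strongest of Esrrg (chr1:188130329-188131154) had 28 fragments (18.6 to 40.5).

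Apart from Sox5, the other factors named here had highest folds below those of Ppargc1a and Esrrg. Auts2, which works with Polycomb proteins and is known from brain development, had 9 summits, 1 at 12.2-fold and the rest at 5.32-fold to 7.86-fold. Nfia, a nuclear factor I protein, had 5, the strongest at 11.6-fold, and Foxp1, a forkhead repressor needed for heart development, had 3, the strongest at 11.3-fold. Mecom had 5 summits of 4.06-fold to 8.02-fold, and Zbtb20, a zinc finger repressor, 5 of 4.08-fold to 8.57-fold. Sox6 held 3, of which the strongest was 6.21-fold. The 1 gene of the list with no summit was Smyd3, a lysine methyltransferase with 556 kb of interior, where a count of 0 allows up to 5.39 per Mb if 3 counts are taken as its limit, and 6.63 by the exact Poisson interval.

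RNA-binding protein genes held 26 summits in 5 of 5 genes, or 5.82 per Mb (3.80 to 8.53), and 4.70 without Celf2. Rbfox1, a splicing regulator active in heart, muscle and neurons, had 9 summits, the strongest (chr16:7101327-7101799) at 17.1-fold with 31 fragments (21.1 to 44.0) and the others at 5.60-fold to 9.78-fold. Celf2, a splicing and RNA stability factor, also had 9, from 4.06-fold to 9.33-fold, with none at 10-fold. Rbms3 had 6, the strongest at 15.7-fold. Adarb2, an RNA-editing enzyme relative, had 1, at 9.36-fold. With 5 genes the list is small, and its interval overlapped that of the transcription factors.

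Signalling genes held 57 summits in 19 of 20 genes, at 3.09 per Mb (2.34 to 4.01). The strongest peak of the list was in Erbb4, the neuregulin receptor needed for trabeculation of the ventricle. Its 7 summits had folds of 6.30, 17.7, 16.4, 12.7, 6.68, 6.73 and 12.6 in order along the chromosome, so 4 of the 7 passed 10-fold. The highest of them (chr1:68862796-68863112) had 49 fragments (36.3 to 64.8). All but 1 of the 7 lay within 246 kb of the outer start, in a gene of 1077 kb. Nrg1, which encodes the neuregulin ligand of this receptor, was the 1 gene of the list with no summit, in 1071 kb of interior, where a count of 0 allows up to 2.80 per Mb by the limit of 3 counts and 3.44 by the exact interval. Both are above the mean of giant genes, so the absence in Nrg1 is not a measured shortage.

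Rgs6, a regulator that shortens signalling by G proteins and is known for limiting the vagal response of heart cells, had 4 summits, 1 at 17.6-fold with 44 fragments and the others between 4.96-fold and 6.52-fold. Lrp1b, a receptor of the LDL receptor family, had 5 with a highest fold of 13.2. Adamtsl1, a secreted matrix protein, had 4 with folds of 13.1, 3.89, 11.0 and 6.77. Pde4b, a phosphodiesterase that degrades cyclic AMP, had 6 of 5.35-fold to 11.7-fold. Receptor tyrosine phosphatase genes held 18 summits in 6 of 6 genes, at 2.98 per Mb (1.77 to 4.71). The strongest of these were 11.9-fold in Ptprd, 8.21-fold in Ptprk, 6.96-fold in Ptprt and 5.86-fold in Ptprg.

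Axon guidance and adhesion genes were the most numerous, with 105 summits in 38 of 42 genes. Their density was 2.44 per Mb (1.99 to 2.95), close to that of all giant genes. Robo1, which also has a role in heart chamber and septum formation, held 10 summits with folds from 4.25 to 15.3. Its relative Robo2 held 5 of 4.35-fold to 9.45-fold, and their ligand gene Slit3 3 of 4.51-fold to 7.45-fold. Sema6d, a semaphorin active in the growth of the heart tube, held 6 summits with folds of 10.8, 8.32, 8.80, 12.2, 6.68 and 16.1, all above the members' median. Tenm3, a teneurin, held 9 of 4.96-fold to 13.3-fold. Cdh18, a cadherin, held 2, at 15.7-fold and 20.7-fold. No summit was found in 4 genes of this list, the longest being Adgrb3, Mdga2 and Cntnap5b.

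Ion channel genes held 21 summits in 9 of 12 genes, at 2.29 per Mb (1.41 to 3.49). Ryr2, the calcium release channel of the cardiac sarcoplasmic reticulum, had 5, with folds of 6.84, 6.74, 6.22, 6.72 and 5.69 on 9 to 22 fragments, so all were near the members' median. A further peak of 9.30-fold lay 2.48 kb from the outer start of Ryr2 and was outside the choice. Cacna1c, the pore of the L-type calcium channel, had 2 members, at 6.32-fold and 9.80-fold, and 2 further peaks within 5 kb of its outer start. Kcnq5 reached 16.1-fold and Kcnd2, a subunit of the transient outward potassium channel, 12.4-fold, each with 4 summits. Ank2, the adaptor that anchors channels and transporters in heart cells, had 2, at 3.54-fold and 8.12-fold. Cacna2d3, Dpp6 and Trpm3 had none.

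Muscle, cytoskeleton and junction genes were among the less dense groups, with 24 summits in 9 of 15 genes, at 2.02 per Mb (1.29 to 3.0). Ctnna3, the α-catenin of the intercalated disc, had 5 of 4.96-fold to 8.02-fold, and Sgcd, a sarcoglycan of the muscle membrane, 2, at 5.35-fold and 8.21-fold. The strongest were 14.5-fold in Inpp4b, a lipid phosphatase, 11.9-fold in Cdh13, a cadherin that lacks the usual membrane span, 11.7-fold in Pard3, a cell polarity protein, and 10.8-fold in Arhgap24, a GTPase-activating protein. Sgcz, Arhgap26 and Arhgap15 were the longest of the 6 with none.

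Neurotransmitter receptor and scaffold genes held 40 summits in 20 of 26 genes, at 1.72 per Mb (1.23 to 2.34), an interval wholly below the giant-gene mean. The highest folds were 14.8 in Csmd3, 13.6 in Magi2, 13.3 in Grip1 and 11.2 in Syt1, which encodes the calcium sensor of synaptic vesicles. Sgcz, which is in this list too, Nrg3 and Grid1 were the longest of the 6 with none. Fragile-site and very large enzyme genes held 47 summits in 16 of 23 genes, at 1.97 per Mb (1.45 to 2.62), again below the mean. Macrod2 carried 12 of the 47, and without it the density was 1.60. Naaladl2 reached 10.4-fold. The longest with none were Agbl4, Immp2l and Dpp6.

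**Figure D5:**
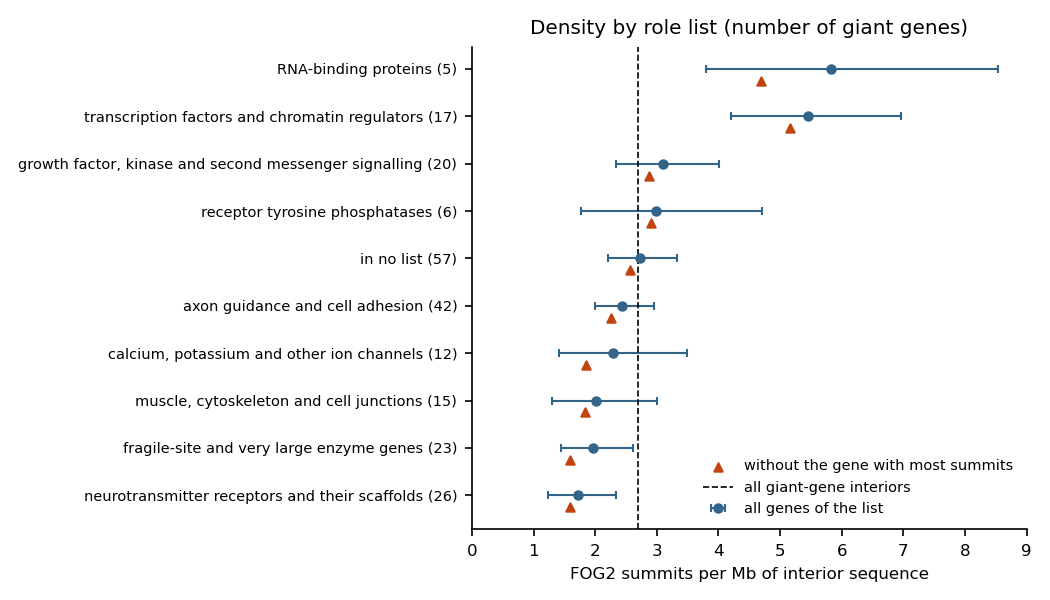
FOG2 summits per Mb of interior sequence (horizontal axis) for the giant genes of each role list (number of genes in brackets). Circles with bars are densities with exact 95% Poisson intervals, triangles the density without the gene holding most summits, and the dashed line the 2.70 per Mb of all giant genes. The RNA-binding and transcription factor lists lie highest, at 5.82 and 5.45, and the neurotransmitter list lowest, at 1.72.

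The lists took in 159 of the 216 giant genes, 6 of them in more than 1 list. The 57 genes in no list held 96 summits, at 2.72 per Mb (2.20 to 3.32), and their highest folds were 23.5 in Lrmda, 17.1 in Marchf1, 14.5 in Nckap5 and 13.8 in Samd12. Among them was Rarb, a retinoic acid receptor, whose 5 summits had folds of 4.66 to 6.50. Lingo2, with 1245 kb of interior, and Agbl4, with 1237 kb, were the longest giant genes with no summit, and a count of 0 allows up to 2.41 and 2.43 per Mb there by the limit of 3 counts, and 2.96 and 2.98 by the exact interval.

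The shortest genes kept were Edil3 at 502 kb, Samd12 at 503 kb and Stpg2 at 504 kb, and the longest left out were Dnm3 at 496 kb, Lrrc7 at 495 kb and Ank3 at 494 kb. Ank3, the ankyrin that gathers channels at excitable membranes, held 9 summits of up to 18.0-fold and so would have stood among the fullest giant genes. The summits kept nearest to a gene end lay 5.11 kb away in Adgrl3 (6.30-fold), 5.19 kb in Sema6d (16.1-fold) and 7.64 kb in Car10 (5.55-fold). Those left out just inside the margin lay 3.81 kb away in Vps13b (5.60-fold), 3.64 kb in Cacna1c (7.79-fold) and 2.93 kb in Pcdh9 (5.60-fold). In all, 8 summits in giant genes were left out because they lay within 5 kb of a gene end. A peak within 5 kb of their own ends was present in 14 giant genes (6.48%). Of these, 11 also held a member, as did 171 of all 216 giant genes (79.2%), so the 14 did not stand out. The share of shorter genes with a peak at their own ends was not computed.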

How the data were processed

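Values came from 1 peak list that the authors deposited for the pooled FOG2 pulldown, on mm10. Bowtie2 2.3.2, SAMtools 1.5, Picard and MACS2 2.1.1 appear in the submitters' processing notes, with settings not given in the sources used here. Per peak the authors deposited the fold (pulldown over control, a linear ratio) and the −log10 p and q, all at the summit. The display score they deposited, which in each of the 6166 peaks was 10 times that −log10 q with decimals dropped, served for nothing here. The 99 peaks on chromosome X were left out by the rule. With replicates pooled, no test over samples was possible, and library totals were not analysed here.

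Gene edges came from a RefSeq table (GRCm38.p6) with 20665 autosomal protein-coding genes, and strand from the RefSeq promoter table. Interior sequence is the length the rule could accept, that is gene bodies less 5 kb around every protein-coding gene end. Fragments at a summit were recovered by solving the fold, with 1 added to both sides, and the Poisson −log10 p for a whole number. All peaks matched within 0.001 (largest misfit 0.000148), and 11 members had a further whole number within it. The caller's background control level was 0.588. Scripts ran in Python 3.11.15 with numpy 2.4.6, pandas 2.3.3, scipy 1.17.1 and matplotlib 3.10.9, and were tested on simulated data.

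The members, the 9 role lists and the settings were chosen with earlier results of these data known. Genes named were those with the most summits, the 15 strongest members, the 3 members on each side of both thresholds and, per list, up to 4 genes of highest fold and 3 without a summit. Genes with heart roles, those with intervals off the mean density and those with grouped summits were named after their values were seen. So were those with the listed start far inside the gene body and those at promoter windows. Some genes under this rule are not reported here. Beyond the 3 promoter windows shown, peak sequences and their motifs were not analysed here. Alternatives covered peak thresholds, the end margin, gene length, biotype, the point used for a peak and the start of the gene.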

Additional observations from a re-analysis of the deposited data

How the results depend on the processing

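No paired analysis was possible because the replicates were pooled before peaks were called. With peaks of −log10 q of at least 5, 307 members remained, at 1.73 per Mb and a median fold of 7.22. At a fold of at least 5 the density was 2.24 per Mb and the median 6.73. Both settings remove weak peaks by construction. With genes of 750 kb or more there were 271 members in 86 genes, at 2.40 per Mb. Counted from the first listed start in matched genes only, a setting added after seeing the data, 313 members were left, since unmatched genes drop out. The number of genes with a summit stayed within 1.5 times 171 in each setting but that of 750 kb. With a margin of 1 kb or 10 kb, genes of 400 kb or more, the middle of the interval or genes of any biotype, counts ran from 454 to 657 and densities from 2.61 to 2.86 per Mb. Counting summits within 10 kb once, also added after seeing the data, gave 443 and 2.50 per Mb. The planned motif search around the summits could not be run without genome sequence. Depth limits single genes, of which 62 of 216 rest on 1 summit, and single peaks, of which the median rests on 11 fragments.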

Other observations

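Chromosome X was outside the choice, but the same rule can be applied to it. Of its 11 giant genes 4 held a summit, with 7 summits in 10.3 Mb of interior, or 0.681 per Mb (exact 95% Poisson interval 0.274 to 1.40), against 2.70 on the autosomes. Chromosome X as a whole held 99 of the 6166 peaks. No density was computed for the rest of X, so the low value cannot be assigned to its giant genes. The labels do not give the sex of the embryos. Fgf13, an intracellular partner of sodium channels in heart and neurons, held 3 summits, at 11.8-fold, 8.12-fold and 6.30-fold. Dmd, which encodes dystrophin, held 2, at 5.04-fold and 8.08-fold, in a gene body of 2390 kb. Il1rapl1, a synaptic adhesion receptor, and Arhgap6, a GTPase-activating protein, held 1 each, at 9.95-fold and 11.7-fold.

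Among the summits left out for lying within 5 kb of a gene end, 1 of 9.95-fold lay 2.18 kb from a gene end in Cdh13. A peak of 5.66-fold lay 0.163 kb from the end of another protein-coding gene inside Cacna2d3, far from the ends of Cacna2d3 itself, which held no member.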
